A study of Homo sapiens with 6 samples.

Results

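The genes of chromosome 17 whose listed start lies at 50 Mb or beyond, out to the last gene end at 83095122, make up the distal long arm of the chromosome. Members were the chromosome 17 genes with a start of at least 50000000 and a mean of at least 10 reads over the 6 libraries. The rule found 272 genes of 19937 in the deposited table, of which 12618 had a mean of at least 10 reads on any chromosome. Another 101 of the 373 genes listed in the stretch lay below the read minimum, and 42 of those had no read in any library. The stretch was picked because genes along it were lower in one group of the same libraries. The values that chose it are therefore given below as a description, with no test of the members, and no count of them is evidence for a shift.

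Bulk RNA was sequenced from SK-N-BE(2), a human neuroblastoma line long kept in culture, in 3 libraries titled sgcon (a control guide) and 3 titled sgGPR91 (a guide against the succinate receptor GPR91, gene SUCNR1). Both groups received drug for 48 h, given as doxorubicin at 100 nmol/L in one field of the labels and as DOX at 1.5 µg/ml in another, and no library from undrugged cells was analysed here. The genotype tags contradict the titles: sgcon libraries are tagged GPR91 knockout and sgGPR91 libraries Control. Titles were followed, so every direction reads sgGPR91 relative to sgcon, and if the tags hold instead, each reverses. Whether either group was 1 clone or a pool, and whether replicates were separate cultures, is not stated, so the spread between libraries may be technical. SUCNR1, the targeted gene, had 1, 0 and 2 reads in the sgcon libraries and 1, 0 and 0 in the sgGPR91 libraries. With 3 reads against 1 in all, it checks neither label: the exact Poisson intervals at 95% ran from 0.619 to 8.77 reads and from 0.0253 to 5.57, for counting error only.

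Genes on a chromosome arm are mostly unrelated in function, and neighbours share a DNA copy number and a local chromatin setting more than a pathway. In neuroblastoma, a tumour of the sympathetic nervous system of childhood, extra copies of the distal long arm of chromosome 17 are among the most frequent chromosome changes, usually joined to another chromosome in an unbalanced translocation. The arm carries growth and survival genes often named in that setting, such as the mitotic and survival factor BIRC5 (survivin), the phosphatase PPM1D and the nucleoside diphosphate kinases NME1 and NME2, beside many housekeeping genes. No DNA measurement was analysed here.

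The start regions of 5 members show how close genes with different behaviour can stand. By RefSeq, DDX5 and CEP95 start back to back, as do TK1 and AFMID, and P4HB lies further out. DDX5 and P4HB were higher in the sgGPR91 libraries, while CEP95, TK1 and AFMID were lower. Each sequence, from RefSeq on GRCh38.p14, runs from 250 bases before to 50 bases after the annotated start, on the strand of its gene, and capitals mark CCAAT and TATAAA on either strand. DDX5 lies at chr17:64506589-64506888 on the minus strand, CEP95 at chr17:64506727-64507026 on the plus strand, TK1 at chr17:78187155-78187454 on the minus strand, AFMID at chr17:78187112-78187411 on the plus strand and P4HB at chr17:81860486-81860785 on the minus strand.
DDX5: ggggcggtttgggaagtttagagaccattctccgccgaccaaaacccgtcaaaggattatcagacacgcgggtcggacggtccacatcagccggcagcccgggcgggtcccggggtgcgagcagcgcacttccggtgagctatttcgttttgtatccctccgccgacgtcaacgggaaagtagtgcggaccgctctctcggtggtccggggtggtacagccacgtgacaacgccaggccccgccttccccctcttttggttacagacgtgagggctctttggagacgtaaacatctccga
CEP95: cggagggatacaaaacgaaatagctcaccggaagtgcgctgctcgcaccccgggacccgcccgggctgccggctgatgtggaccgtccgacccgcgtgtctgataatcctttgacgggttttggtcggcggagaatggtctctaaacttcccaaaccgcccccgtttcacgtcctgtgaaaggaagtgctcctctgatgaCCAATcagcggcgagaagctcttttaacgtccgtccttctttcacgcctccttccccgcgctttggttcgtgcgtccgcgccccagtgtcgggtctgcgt
TK1: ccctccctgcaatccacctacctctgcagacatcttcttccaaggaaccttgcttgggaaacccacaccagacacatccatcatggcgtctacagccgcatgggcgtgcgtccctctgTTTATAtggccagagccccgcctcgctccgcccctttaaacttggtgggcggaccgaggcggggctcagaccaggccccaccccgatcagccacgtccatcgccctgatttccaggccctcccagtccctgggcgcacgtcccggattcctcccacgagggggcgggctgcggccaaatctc
AFMID: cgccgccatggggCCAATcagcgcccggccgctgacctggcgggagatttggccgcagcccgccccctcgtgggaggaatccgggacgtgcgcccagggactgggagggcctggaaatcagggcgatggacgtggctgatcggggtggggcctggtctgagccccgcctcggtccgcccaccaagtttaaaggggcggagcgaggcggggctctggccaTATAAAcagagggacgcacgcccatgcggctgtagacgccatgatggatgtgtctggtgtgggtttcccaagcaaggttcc
P4HB: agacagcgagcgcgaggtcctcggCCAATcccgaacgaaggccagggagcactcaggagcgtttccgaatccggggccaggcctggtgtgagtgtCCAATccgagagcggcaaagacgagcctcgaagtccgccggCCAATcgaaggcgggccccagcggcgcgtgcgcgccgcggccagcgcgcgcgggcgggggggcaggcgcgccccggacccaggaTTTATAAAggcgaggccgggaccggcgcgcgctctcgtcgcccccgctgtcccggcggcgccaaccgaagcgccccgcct
The DDX5 and CEP95 windows share 162 bases read from opposite strands, and those of TK1 and AFMID share 257. The same TATAAA stands in both of the latter, as TTTATA on the TK1 strand. Neither motif stands in the DDX5 window, whose RefSeq start lies 1561 bases from the 5′ end of the gene in the deposited table, and the P4HB window holds CCAAT 3 times. A RefSeq promoter was matched for 203 of the 272 members. CCAAT stood in 34.6% and TATAAA in 11.5% of all 35116 promoters of this length. Among matched members CCAAT stood in 7 of 13 called higher, 46 of 112 called lower and 28 of 78 not called, and TATAAA in 1, 9 and 4 of them. These are letter matches in a fixed window and no more.

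Of the members, 271 passed the expression filter and were fitted; ST6GALNAC2, a sialyltransferase gene, did not pass. Values are log2 fold changes of sgGPR91 over sgcon with a standard error, and levels are read counts scaled to the size of the library (CPM) or, where genes are compared by level, FPKM (fragments per kilobase of gene, scaled to the library total). The median over members was -0.31, a 1.24-fold lower level, with a mean of -0.29, an SD over genes of 0.46 and quartiles of -0.52 and -0.04. Over all 12701 genes fitted the median was -0.01, with quartiles of -0.25 and 0.26. By edgeR's quasi-likelihood test across all genes, at an adjusted p under 0.05, 137 members were called lower and 17 higher, beside 20.95% and 20.2% of all genes fitted (41.1% in either direction). The remaining 117 were not called. A value of 0 or above was found for 58 members, beside 49.4% of all genes. In 143 members all sgGPR91 libraries lay below all sgcon libraries, in 22 they all lay above, and in 106 the groups overlapped; these orders held for 25.2% and 25.7% of all genes, 50.9% together. Since the stretch was chosen from this contrast, nothing is read from these counts.

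Given per library, these are the same values that chose the stretch, and they add no separate support. As the median over members of the log2 level relative to the mean of the sgcon libraries, the sgcon libraries stood at -0.04, 0.01 and 0.04 and the sgGPR91 libraries at -0.31, -0.29 and -0.30. The groups did not overlap, and each spread over less than 0.1. Members took 2.49%, 2.57% and 2.62% of all reads in the sgcon libraries and 2.16%, 2.16% and 2.17% in the sgGPR91 libraries, out of totals of 7070189 to 10252425 reads. The shift was small per gene: 167 members lay between -0.6 and 0, 12 at -1 or below (3.24% of all genes) and 3 at 1 or above (4.03% of all genes). Its centre changed little with expression level. The 45 members under 10 CPM had a median of -0.24 with an SD of 0.63, the 154 from 10 to 100 CPM had -0.32 with 0.46, and the 72 at 100 CPM or more had -0.30 with 0.31. In the most highly expressed group no member reached -1 or 1. In bulk RNA, fewer cells expressing a gene and less RNA per cell cannot be told apart.

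**Figure D1:**
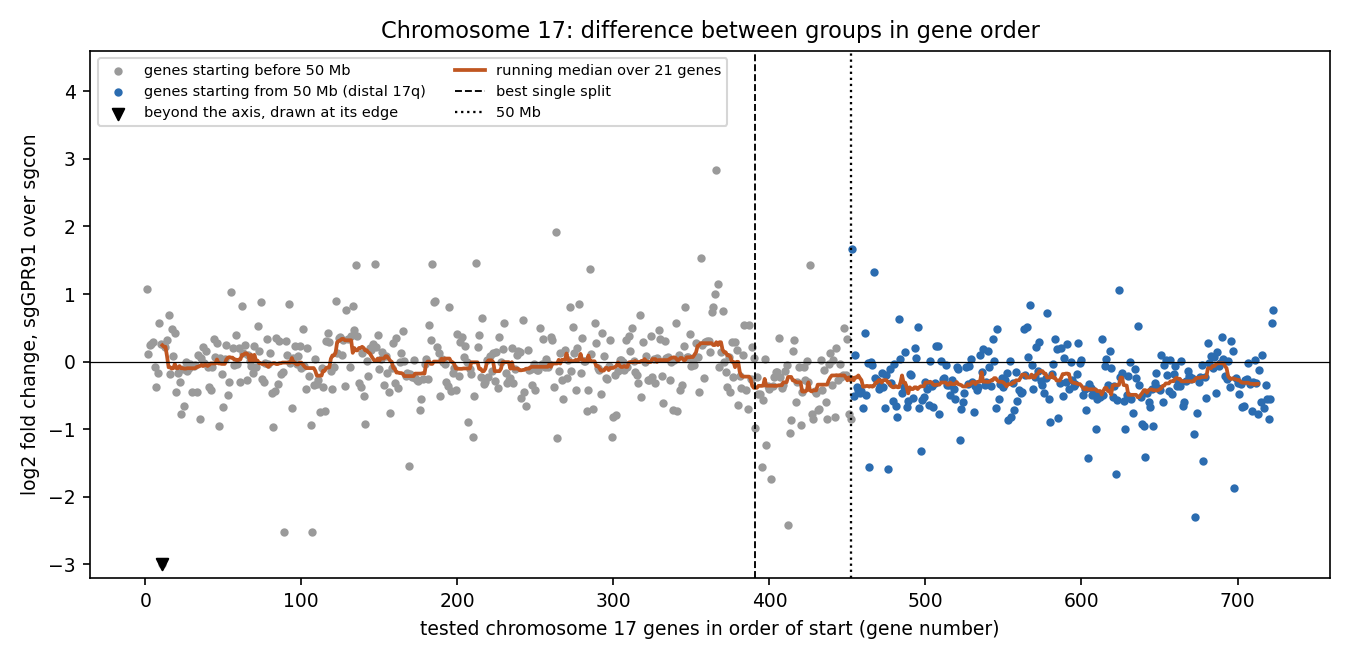
Fitted log2 fold change (sgGPR91 over sgcon) of each chromosome 17 gene with a mean of at least 10 reads, in the order of its start; grey points are genes before 50 Mb and blue points members, the triangle is a gene below the axis, the line is the running median over 21 genes, and the vertical lines mark the best single split (dashed) and 50 Mb (dotted). The running median leaves 0 before the 50 Mb line and stays below 0 to the end of the chromosome.

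The shift did not begin at 50 Mb. Ordered by start, the 723 chromosome 17 genes were divided by 1 split, placed by least absolute deviation from the medians of both sides. Here and below, every segment had to hold at least 20 genes. Splits were placed on these same values, so differences across them are partly built in. The single split fell between UBTF (start 44205033), which encodes the RNA polymerase I factor UBF, and RUNDC3A (start 44308413). The 390 genes before it had a median of -0.00 and the 333 after it -0.31. Such a split removed 6.84% of the summed deviation, leaving most of the gene-to-gene spread. RUNDC3A, a neuronal RUN domain gene, had 51.2, 58.96 and 57.8 CPM in the sgcon libraries and 25.8, 28.6 and 30.9 CPM in the sgGPR91 libraries, a log2 fold change of -0.98 ± 0.10, while UBTF stood at 0.05. The groups did not overlap for RUNDC3A. With 2 splits the lower stretch began slightly earlier, at MPP2 (start 43875357, -0.65 ± 0.13), after 24 genes from CCR10 to MPP3 with a median of 0.27. These 2 splits removed 7.43% of the deviation. Across the settings tried a single split fell between 43.2 and 44.3 Mb.

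The 62 genes from the split to 50 Mb, which are no members, had a median of -0.32, with 33 called lower and 4 higher. These counts stand beside 20.95% and 20.2% of all genes fitted. The set begins at a split placed on the same values, so its low median follows in part from that choice. In the fixed window from 45 to 50 Mb, 46 genes had a median of -0.29, with 21 called lower and 4 higher. Values of the 62 genes were mixed too: FMNL1, a formin of the actin cytoskeleton, stood at -2.42 ± 0.22 and ADAM11 at -1.74, while the integrin subunit ITGB3 stood at 1.42, the neurotrophin receptor NGFR at 0.49 and MAPT, which encodes tau, at 0.31. At the boundary of the rule, the last gene before 50 Mb was the histone acetyltransferase gene KAT7 (start 49788648, -0.84) and the first members were ITGA3 (50055968, 1.67) and PDK2 (50094737, -0.52). At the read minimum, RBFOX3 (7.33 reads on average), SLC16A5 (8) and ZNF750 (8.50) lay just outside, and TMC8 (10), PPP1R27 (10.2) and UNC13D (10.8) just inside. The 452 chromosome 17 genes before 50 Mb had a median of -0.04, with 110 called lower and 72 higher, 0.27 above the members.

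**Figure D2:**
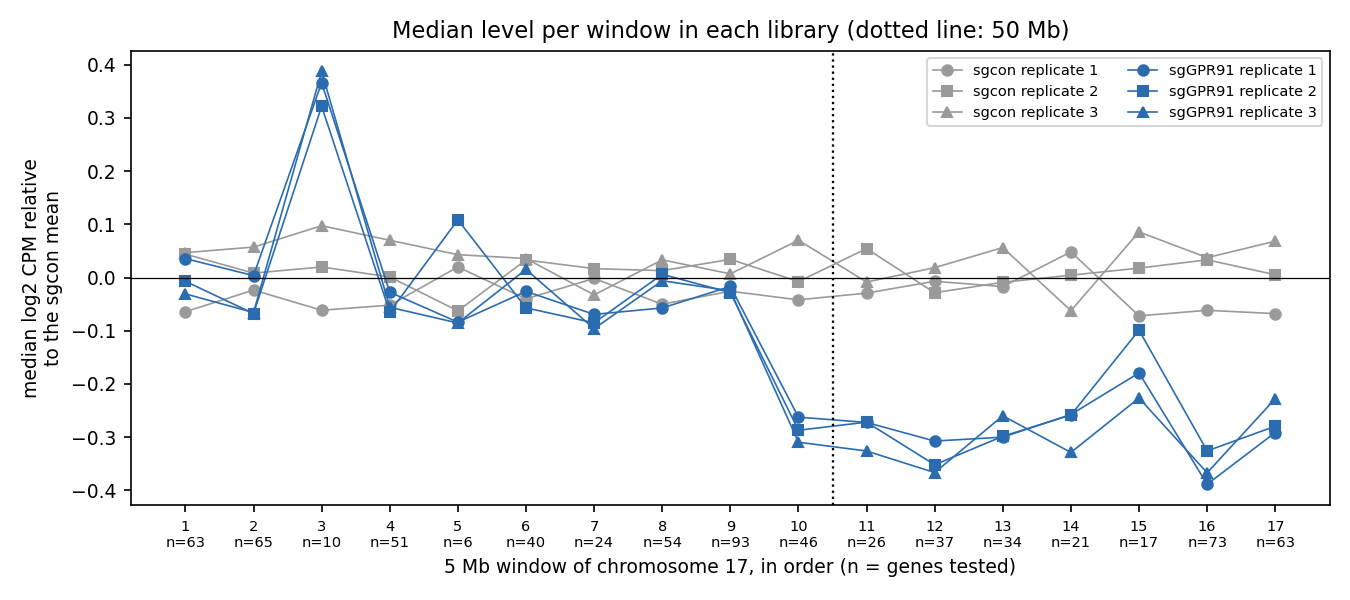
Median log2 level of chromosome 17 genes in windows of 5 Mb by start, relative to the sgcon mean, for each of the 6 libraries; windows are numbered along the chromosome, points are libraries and the dotted line marks 50 Mb. From 45 Mb on, the sgGPR91 libraries lie below the sgcon libraries in every window, between -0.10 and -0.39, and the window from 10 to 15 Mb, with 10 genes, lies above them.

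From 50 Mb to the end, every 5 Mb window had a median below 0, from -0.36 to -0.18. The 5 Mb windows had medians of -0.34 (50 to 55 Mb, 26 genes), -0.34 (55 to 60 Mb, 37), -0.32 (60 to 65 Mb, 34), -0.28 (65 to 70 Mb, 21), -0.18 (70 to 75 Mb, 17), -0.36 (75 to 80 Mb, 73) and -0.27 (80 to 85 Mb, 63). In each of these 7 windows all 3 sgGPR91 medians lay below all 3 sgcon medians. That order was not particular to the stretch, since it also held from 45 to 50 Mb and from 30 to 35 Mb. In the window from 30 to 35 Mb the sgGPR91 libraries stood at -0.07, -0.09 and -0.10 against -0.002, 0.02 and -0.03 in sgcon. The window from 70 to 75 Mb had the smallest shift and the fewest genes. In it 7 genes were called lower and 2 higher, beside 20.95% and 20.2% of all genes fitted. Its sgGPR91 libraries stood at -0.18, -0.10 and -0.23 against -0.07, 0.02 and 0.09 in sgcon. The best single split among members, at the protease inhibitor gene TIMP2 (start 78852977), parted medians of -0.33 and -0.26 and removed 0.601% of the deviation. Other settings moved it by many megabases, and it marks no clear step. With 2 splits, 21 genes from SLC38A10 to PYCR1 (starts 81244811 to 81932384) had a median of -0.03 between stretches of -0.32 and -0.33. The minimum of 20 genes a segment limits how short this middle stretch could be. Its edges were chosen from these values, so its median follows in part from the choice. That stretch holds NPLOC4, P4HB and MAFG, all called higher, and 2.62% of the deviation was removed. The running median was highest there, at -0.03 at SLC25A10, and lowest, at -0.53, at MGAT5B near 76.9 Mb, a gene that itself stood at 0.53.

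The 58 members at 0 or above formed 47 separate runs along the chromosome, 38 of them of a single gene, 7 of a pair and the longest of 3 genes (SRSF1 to EPX, and ARSG to WIPI1). The longest unbroken run below 0 held 18 genes, from PTRH2 (start 59674636) to MRC2 (start 62627670). Of the 32 immediate neighbours of the genes called higher, 25 lay below 0, beside 213 of all 271 fitted members. The genes called higher had a median level of 52.9 CPM, against 60.6 for those called lower and 29.6 for those not called. Listed gene lengths had medians of 6583, 5999 and 5294 bases in the same order, and 7 of 17, 68 of 137 and 54 of 117 stood on the plus strand.

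The highest member was ITGA3. It encodes the integrin subunit of a laminin receptor and had 4.47, 6.03 and 8.05 CPM in the sgcon libraries and 16.5, 22.5 and 19.4 CPM in the sgGPR91 libraries. Every sgGPR91 library was above every sgcon library, 6.18 ± 1.79 against 19.4 ± 3.03 CPM (SD, n = 3), a 3.18-fold higher level (log2 1.67 ± 0.20). ABCC3, an efflux transporter of organic anions and drug conjugates, had 16.7, 22.9 and 26.6 CPM in the sgcon libraries and 50.96, 59.7 and 54.7 CPM in the sgGPR91 libraries, 2.51-fold higher (log2 1.33 ± 0.13) with no overlap. QRICH2, a gene of the sperm flagellum, had 4.14, 6.92 and 7.49 CPM in the sgcon libraries and 11.7, 12.5 and 14.5 CPM in the sgGPR91 libraries (log2 1.07 ± 0.21). It too separated the groups, at a low level. WIPI1, which binds phosphoinositides on forming autophagosomes, had 9.73, 9.20 and 10.8 CPM in the sgcon libraries and 18.7, 16.9 and 17.1 CPM in the sgGPR91 libraries (log2 0.83 ± 0.14). It overlaps the sulfatase gene ARSG, itself at 0.52, so reads of the pair may be shared between them. SDK2, a synaptic adhesion molecule, had 24.6, 30.96 and 35.8 CPM in the sgcon libraries and 47.3, 50.2 and 51.6 CPM in the sgGPR91 libraries (log2 0.71 ± 0.12). MGAT5B, a brain-enriched N-acetylglucosaminyltransferase, had 39.3, 40.96 and 54.5 CPM in the sgcon libraries and 62.9, 61.7 and 68.1 CPM in the sgGPR91 libraries (log2 0.53 ± 0.11). In both the lowest sgGPR91 library exceeded the highest sgcon library. METRNL, a secreted factor, stood at 0.76 ± 0.19 and the glycosyltransferase-like gene B3GNTL1 at 0.58 ± 0.22; the call of B3GNTL1 ended with DESeq2 and without any 1 of sgcon replicates 1 and 2 and sgGPR91 replicates 2 and 3 (values from 0.44 to 0.72). On the log2(FPKM + 1) scale ITGA3 stood at 0.87.

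Some abundant genes were also higher, by smaller steps. DDX5, an RNA helicase of splicing and transcription, had 401, 421 and 444 CPM in the sgcon libraries and 578, 603 and 586 CPM in the sgGPR91 libraries, 422 ± 21.6 against 589 ± 12.7 CPM (SD, n = 3), a log2 fold change of 0.48 ± 0.07. Its back-to-back neighbour CEP95, a centrosome gene, had 152, 132 and 142 CPM in the sgcon libraries and 79.8, 109.8 and 100.3 CPM in the sgGPR91 libraries (log2 -0.56 ± 0.10). Neither gene's groups overlapped, and the pair lay on opposite sides of 0 although their start windows share 162 bases. KPNA2, an importin that carries proteins into the nucleus, had 163, 178 and 158 CPM in the sgcon libraries and 253, 209.8 and 237 CPM in the sgGPR91 libraries (log2 0.49 ± 0.08). P4HB, the protein disulfide isomerase of the endoplasmic reticulum, had 293, 277 and 296 CPM in the sgcon libraries and 383, 346 and 383 CPM in the sgGPR91 libraries (log2 0.36 ± 0.07). All 3 sgGPR91 libraries were above all sgcon libraries for both. The transcription factor subunit MAFG (0.31 ± 0.07) and the endoplasmic reticulum ribosome-binding protein LRRC59 (0.42 ± 0.08) kept their calls in all 13 alternative fits. SRSF1, a splicing factor (0.20), SOX9, a neural crest transcription factor (0.22), NPLOC4, a cofactor of the segregase p97 (0.28), and ARSG lost theirs in 5 or 6 of them, each without sgcon replicate 2 among others. Over all settings SRSF1 ranged from 0.17 to 0.26, SOX9 from 0.18 to 0.26, NPLOC4 from 0.17 to 0.38 and ARSG from 0.31 to 0.60.

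**Figure D3:**
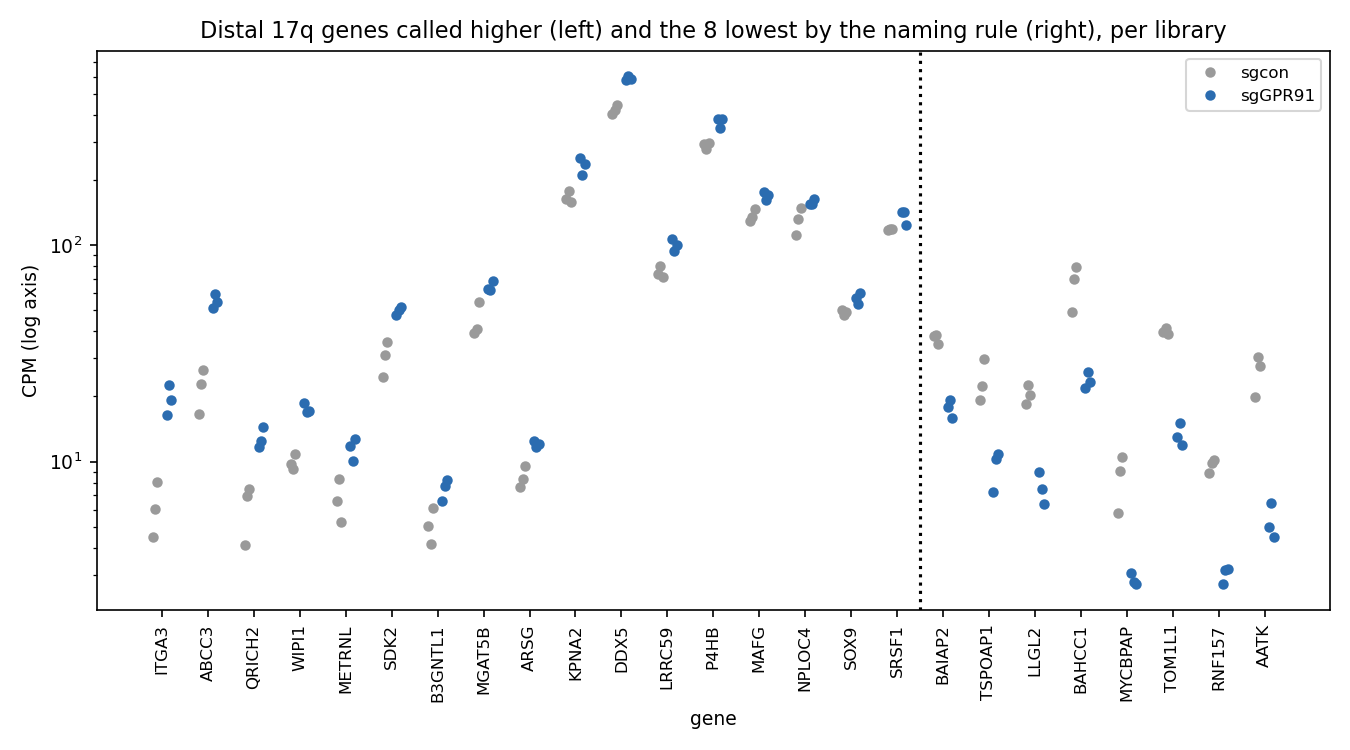
CPM on a log axis in each of the 6 libraries for the 17 members called higher (left of the dotted line) and the 8 with the lowest log2 fold change among those with a mean of at least 5 CPM (right); each point is a library, grey for sgcon and blue for sgGPR91. ITGA3 and ABCC3 stand higher and AATK, RNF157 and TOM1L1 lower in all 3 sgGPR91 libraries, with no overlap.

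The lowest member was AATK. This kinase gene, best known in neurons, had 19.9, 30.6 and 27.6 CPM in the sgcon libraries and 4.99, 6.41 and 4.48 CPM in the sgGPR91 libraries. Its groups lay far apart, 26.03 ± 5.50 against 5.30 ± 1.00 CPM (SD, n = 3), a 4.92-fold lower level (log2 -2.30 ± 0.19). BAIAP2, a gene of membrane protrusions that overlaps AATK on the opposite strand, had 38.1, 38.5 and 34.8 CPM in the sgcon libraries and 17.8, 19.2 and 15.9 CPM in the sgGPR91 libraries (log2 -1.08 ± 0.11). Both were lower without overlap, and since no label says whether counting used strand, their reads cannot be fully told apart. TOM1L1, an endosomal sorting adaptor, had 39.8, 41.4 and 38.8 CPM in the sgcon libraries and 12.9, 15.01 and 11.9 CPM in the sgGPR91 libraries (log2 -1.59 ± 0.11). It overlaps COX11, a cytochrome oxidase assembly gene, which stood at -0.10. BAHCC1, a chromatin protein that reads a repressive histone mark, had 49.3, 69.6 and 79.1 CPM in the sgcon libraries and 21.9, 26.02 and 23.2 CPM in the sgGPR91 libraries (log2 -1.47 ± 0.14). RNF157, a ubiquitin ligase of neurons, had 8.84, 9.89 and 10.1 CPM in the sgcon libraries and 2.72, 3.15 and 3.19 CPM in the sgGPR91 libraries (log2 -1.67 ± 0.21). In both genes the highest sgGPR91 library was below the lowest sgcon library. The polarity gene LLGL2 stood at -1.43 ± 0.16, the presynaptic scaffold TSPOAP1 at -1.32 ± 0.18 and MYCBPAP, a gene known from testis, at -1.56 ± 0.26. NOTUM, which encodes an enzyme that inactivates Wnt ligands, had 5.82, 6.03 and 7.21 CPM in the sgcon libraries and 0.568, 1.09 and 3.54 CPM in the sgGPR91 libraries (log2 -1.87 ± 0.40); all 3 sgGPR91 libraries were lower, 1 of them less so. On the log2(FPKM + 1) scale, which shrinks genes of low level, AATK stood at -1.07 and NOTUM at -1.04.

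By role, 161 members fell into at least 1 of 10 lists, and the other 111 into none. The lists were written with results of these libraries known. Their counts are descriptions beside 20.95% called lower and 20.2% called higher among all genes. Among all fitted members, from which every list was drawn, the shares were 50.6% and 6.27%.

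Of the 13 members often discussed as 17q genes of neuroblastoma, 6 were called lower and 1 higher, with a median of -0.33. BIRC5, which guards chromosome segregation and blocks cell death, had 149.6, 142 and 122 CPM in the sgcon libraries and 106, 105 and 101 CPM in the sgGPR91 libraries (log2 -0.41 ± 0.08). MSI2, an RNA-binding protein of stem and progenitor cells, had 465, 502 and 477 CPM in the sgcon libraries and 309, 322 and 329 CPM in the sgGPR91 libraries (log2 -0.59 ± 0.07). For both, all sgGPR91 libraries were below all sgcon libraries. PPM1D, a phosphatase that switches off p53 and DNA damage signalling, stood at -0.55 ± 0.10, the lysyl hydroxylase JMJD6 at -0.56, the S6 kinase RPS6KB1 at -0.34 and the chromatin assembly kinase TLK2 at -0.33. TBX2 (-0.10), CBX2 (0.03), TRIM37 (0.01), ALYREF (-0.22), NME1 (-0.17) and NME2 (-0.38) were not called. NME1 and NME2 are near-identical neighbours joined by a readthrough transcript, so how their reads were divided is uncertain. SOX9 was the member called higher, at 48.8 ± 1.33 against 56.9 ± 3.11 CPM (SD, n = 3) in the order sgcon and sgGPR91.

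Genes of DNA repair, replication and mitosis had the lowest median of the lists, -0.48, with 18 of 20 called lower. The repair nuclease subunit EME1 (-0.69), the helicase BRIP1 (-0.70), the recombinase paralogue RAD51C (-0.41), the helicase RECQL5 (-0.39), the Fanconi anaemia core protein FAAP100 (-0.55) and the mitochondrial polymerase subunit POLG2 (-0.69) were all lower. TK1, the thymidine kinase of dividing cells, had 52.7, 46.2 and 37.3 CPM in the sgcon libraries and 33.1, 27.5 and 29.6 CPM in the sgGPR91 libraries (log2 -0.60 ± 0.12). PRR11, a cell cycle gene, had 191, 223 and 203 CPM in the sgcon libraries and 133, 128 and 126 CPM in the sgGPR91 libraries (log2 -0.67 ± 0.07). Both separated the groups. KPNA2 was called higher, and the centriole regulator TRIM37 was not called.

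In RNA processing and export 12 of 19 members were called lower and 2, DDX5 and SRSF1, higher, with a median of -0.31. EIF4A3, the helicase of the exon junction complex, stood at -0.36 ± 0.09, the helicase DHX40 at -0.77, the tRNA splicing subunit TSEN54 at -0.71 and the nuclear pore protein NUP85 at -0.36. The splicing factor SRSF2 (-0.11) was not called. In translation 7 of 14 were called lower and 1, LRRC59, higher, with a median of -0.35. RPL38, a ribosomal protein, stood at -0.55 ± 0.10, SRP68 of the signal recognition particle at -0.53 ± 0.07, and the mitochondrial ribosomal proteins MRPL27, MRPS7 and MRPS23 at -0.44, -0.18 and -0.18. The MRPS pair was not called.

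Respiratory and metabolic genes had 12 of 23 called lower and none higher, with a median of -0.31. The lactate exporter SLC16A3 (-0.74), the galactokinase GALK1 (-0.55), the xylulose reductase DCXR (-0.67), and the lysosomal enzymes SGSH (-0.65) and GAA (-0.29) were lower. FASN, the fatty acid synthase, stood at -0.02 ± 0.10, the proline synthesis enzyme PYCR1 at 0.16 and the dicarboxylate carrier SLC25A10 at 0.14, none of them called. The phosphatidylglycerophosphate synthase gene PGS1 (-0.32) was called lower, and its call ended with DESeq2, on both FPKM scales and without any 1 of sgcon replicates 2 and 3 and the 3 sgGPR91 replicates (values from -0.45 to -0.22).

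Signalling genes had 16 of 28 called lower and none higher, with a median of -0.30. The small RNA pathway scaffold TNRC6C (-0.93), the G protein subunit GNA13 (-0.38), the endosomal sorting protein HGS (-0.47) and the casein kinase CSNK1D (-0.30) were lower. Several central transducers stood near 0 and were not called: PRKCA at 0.00 ± 0.08, GRB2 at 0.03 ± 0.08 and PRKAR1A at -0.06 ± 0.07. In transcription and chromatin 13 of 21 were called lower and 3 higher, with a median of -0.38. The 3 were SOX9, MAFG and NPLOC4, of which NPLOC4 is best known from protein degradation and is also in that list. H3-3B, which encodes the replication-independent histone variant, had 529, 544 and 466 CPM in the sgcon libraries and 371, 361 and 347 CPM in the sgGPR91 libraries (log2 -0.51 ± 0.07), and its groups did not overlap. The remodeller subunit BPTF stood at -0.46 ± 0.07, the Mediator subunit MED13 at -0.46 and the Polycomb protein CBX8 at -0.48.

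Cytoskeleton and traffic genes had 11 of 22 called lower and none higher, with a median of -0.31. SEPTIN9, a filament-forming GTPase, had 596, 621 and 597 CPM in the sgcon libraries and 430.2, 407 and 422 CPM in the sgGPR91 libraries (log2 -0.53 ± 0.07), with every sgGPR91 library lower. ACTG1, the cytoplasmic gamma actin and the member with the highest level per length, had 567, 554 and 489 FPKM in the sgcon libraries and 494, 442 and 446 FPKM in the sgGPR91 libraries (log2 fold change -0.23 ± 0.09). Its groups overlapped and it was not called, although 6 of 13 alternative fits called it lower, among them those without sgcon replicate 3 or sgGPR91 replicate 1 (values from -0.31 to -0.18). CLTC, the clathrin heavy chain, stood at 0.01 ± 0.07. The next highest members per length were DCAF7, a ubiquitin ligase adaptor, with 102, 108 and 101 FPKM in the sgcon libraries and 78.7, 78.5 and 75.3 FPKM in the sgGPR91 libraries, and LGALS3BP, a secreted glycoprotein, with 92.9, 95.5 and 81.2 FPKM in the sgcon libraries and 88.5, 85.5 and 89.01 FPKM in the sgGPR91 libraries. The DCAF7 groups were apart and those of LGALS3BP overlapped.

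In folding, glycosylation and degradation 10 of 19 fitted members were called lower and 3 (P4HB, MGAT5B and NPLOC4) higher, with a median of -0.28. Among them were the deglycating kinases FN3K (-0.85) and FN3KRP (-0.55) and the ubiquitin enzymes UBE2O (-0.58) and USP36 (-0.42), all lower, while the proteasome subunits PSMC5 (-0.09) and PSMD12 (-0.16) were not called. Surface, adhesion and matrix genes had the highest median of the lists, -0.18. Of 13, 4 were called lower and 3 (ITGA3, ABCC3 and SDK2) higher, beside 20.95% and 20.2% of all genes fitted. COL1A1, a chain of type I collagen, had 83.1, 101 and 100.3 CPM in the sgcon libraries and 71.1, 68.98 and 73.5 CPM in the sgGPR91 libraries (log2 -0.41 ± 0.08), lower without overlap. TIMP2 stood at 0.09 ± 0.07 and was not called. The differences between lists were not tested.

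**Figure D4:**
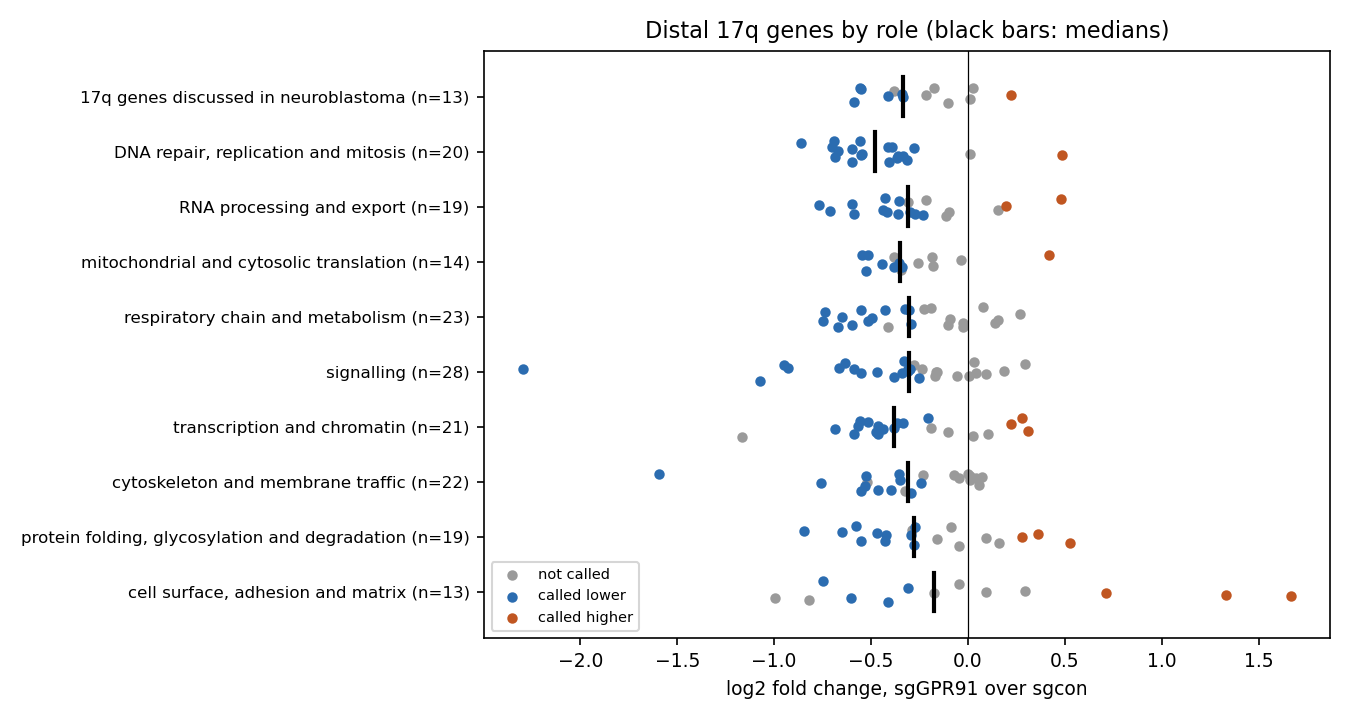
Log2 fold change (sgGPR91 over sgcon) of the fitted members of each role list; points are genes, coloured by call, and the bar is the list's median. Medians lie between -0.48 (DNA repair, replication and mitosis) and -0.18 (cell surface, adhesion and matrix).

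Genes that start close together in opposite directions differed less from each other than other neighbours did; the difference was not tested. In 20 pairs of members with divergent starts within 1000 bases, the median absolute difference in log2 fold change was 0.20. It was 0.35 in 113 other neighbouring pairs on opposite strands and 0.38 in 138 pairs on the same strand. Of the 20 divergent pairs, 17 had both genes below 0, 9 had both called lower, and none had both at 0 or above. Among the 113 other pairs on opposite strands these counts were 68, 31 and 5. Among the 138 pairs on the same strand they were 83, 34 and 6. TK1 and AFMID, whose start windows overlap, start 84 bases apart and stood at -0.60 and -0.67. MRPL27 and EME1, 13 bases apart, stood at -0.44 and -0.69, and JMJD6 and the methyltransferase gene METTL23, 31 bases apart, at -0.56 and -0.75. The 3 divided pairs were NAT9 and TMEM104, OXLD1 and CCDC137, and ARL16 and HGS. DDX5 (0.48) and CEP95 (-0.56) are not among the 20 pairs, which were taken from the starts in the deposited table, where the DDX5 start lies 1561 bases from that of RefSeq; by RefSeq they would be a further divided pair. Genes on opposite strands were called in opposite directions in 7 of the 113 pairs. Across the members, 90 overlap a gene of the opposite strand, among them 6 of the 17 called higher and 47 of the 137 called lower, and their reads may be mixed.

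Other chromosome stretches of the same libraries had medians near that of the members. The 70 genes of distal 10q, from ATRNL1 to SCART1, had -0.30, with 36 called lower and 6 higher, and the 443 genes of chromosome 4 had -0.34, with 239 and 44. These counts stand beside 20.95% called lower and 20.2% called higher among all genes fitted. Values in both stretches were more spread, with SDs over genes of 0.77 and 0.81 against 0.46 among the members. Like the members, both were picked with earlier results of these libraries known, so their low medians are no independent match. These comparisons rest on the same 6 libraries and were not tested. Markers of the labelled cell type differed between the groups as well. All 10 adrenergic neuroblastoma markers were above 1 FPKM in every library, and their summed level ran from 2113 to 2286 FPKM in sgcon and from 1468 to 1563 in sgGPR91. MYCN made up the largest share of that sum, with 1098, 1014 and 1050 FPKM in sgcon and 707, 616 and 618 in sgGPR91. The markers did not all follow the sum: PHOX2A overlapped between the groups, with 377, 356 and 305 FPKM in sgcon and 349.9, 369 and 363 in sgGPR91. The mesenchymal markers, of which 6 of 8 passed 1 FPKM and COL1A1 is a member, summed to 211 to 225 and 216 to 220 FPKM. LUM made up most of that sum, with 146, 145 and 134 FPKM in sgcon and 154, 148 and 153 in sgGPR91. The similar sums hide markers that moved apart. LUM and THY1 were higher and PDGFRB and COL1A1 lower in sgGPR91 without overlap, while the others overlapped. Of the Schwann markers 0 of 4 passed 1 FPKM in every library (sums 1.30 to 1.79 and 2.49 to 3.63), of the leukocyte markers 0 of 5, with CD3E and LYZ at 0 reads (0.341 to 0.772 and 1.02 to 1.52), of the endothelial 0 of 4 (0.0188 to 0.0502 and 0.0318 to 0.120) and of the epithelial 1 of 4 (4.84 to 6.80 and 2.90 to 3.70). Their part in the members' values was not tested.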

How the data were processed

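Per the file headers, the deposited table holds read counts and FPKM values per gene for each of the 6 libraries. The deposited FPKM values, made by the authors, equal the count per kilobase of listed gene length scaled to the library total. The tools named, per the submitters' processing notes, are HISAT2, Bowtie2 and RSEM, with neither version nor role. The build they mapped to was not given in the sources used here. All 272 members were found in GENCODE 29 (GRCh38) on the same strand, within 100 kb, with the same start for 174 and the same end for 177. Coordinates are those of the deposited table.

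Counts were fitted with edgeR 4.0.16 in R 4.3.3: filterByExpr (minimum count 10, minimum total 15), TMM scaling, and the quasi-likelihood test of sgGPR91 against sgcon, with Benjamini-Hochberg adjustment over all genes and calls at 0.05. A standard error is the absolute log2 fold change over the root of the F statistic. Scripts were tested on simulated data. Alternatives used DESeq2 1.42.0 and limma 3.58.1. The members and lists were chosen with earlier results of these data known. Named genes are the 8 lowest and 8 highest members with a mean of at least 5 CPM, the 4 on either side of the best split within the region, the 3 highest by FPKM, and the 3 with the highest CPM in each role list. Other genes were named after their values were seen.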

Additional observations from a re-analysis of the deposited data

How the results depend on the processing

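The median, the counts and the position of the change were recomputed under each other setting. The median over members was -0.26 with limma on log2(FPKM + 1) and -0.34 to -0.28 when single libraries were left out. Members called lower numbered 121 to 138 without single libraries and 123 to 141 under other settings without a block. Members called higher numbered 12 to 24 and 13 to 17. Calls over all genes moved too. Without single libraries 2078 to 2885 genes were called lower and 2030 to 2822 higher, of 12867 to 12899 fitted. Under the other settings without a block these were 2173 to 2822 and 2215 to 2641, of 11135 to 16535 fitted. Members at 0 or above numbered 52 to 68 without single libraries. The difference from chromosome 17 before 50 Mb was -0.21 with log2(FPKM + 1), -0.24 with log2(FPKM + 0.1) and -0.27 to -0.25 without single libraries. The best split of the chromosome began at 43875357 with DESeq2, with no filter, with the replicate block and with a minimum of 50 reads, at 43211835 with log2(FPKM + 0.1), at 42678889 and 43875357 with 2 splits, and between 43875357 and 44308413 without single libraries. The split within the stretch moved to 78971238 with DESeq2 or no filter, 59209400 on both FPKM scales, 75441159 by least squares, 81244811 and 81952507 with 2 splits, and from 68035636 to 81556887 without single libraries.

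The labels do not say that replicate numbers pair the libraries, and the data leave it undecided: the correlations of deviations between same-numbered libraries were 0.15, 0.02 and 0.08, not all above 0.1, and 5 of the 6 libraries correlated best with their own number. With the replicate block the median was -0.31, 147 members were called lower, 19 higher and 57 stood at 0 or above. Over all 12701 genes fitted with that block, 2886 were called lower and 2784 higher. Of 108 named genes over all settings, 1299 values kept their call, 65 lost it, 18 gained one and none changed direction while called. Of the 137 members called lower, 107 kept the call in all settings that fitted them, and of the 17 called higher 12 did. Leaving out chromosomes 4, 10 and 17 from the scaling moved the median of all genes by -0.02. Depth limits the members under 10 CPM most, and their SD over genes was 0.63.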

Other observations

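Ahead of the members, 2 stretches of chromosome 17 stood above 0. The 24 genes from CCR10 to MPP3 (starts 42678889 to 43800799) had a median of 0.27, with 10 called higher and 2 lower. These counts stand beside 20.2% and 20.95% of all genes fitted. The sgGPR91 libraries stood at 0.25, 0.26 and 0.22 against 0.01, -0.02 and 0.03 in sgcon. The edges of this stretch were placed on these same values. Its median, its calls and the gap between libraries therefore follow in part from that choice and were not tested. Among the 24 genes PTGES3L, a gene of the p23 co-chaperone family, stood at 2.84 ± 0.18, the chemokine receptor gene CCR10 at 1.54 ± 0.42, RUNDC1 at 1.15 ± 0.12 and AARSD1, an alanyl-tRNA editing gene, at 1.00 ± 0.25. CCR10 rested on a mean of 14.2 reads, near the read minimum, and overlaps CNTNAP1 on the opposite strand. PTGES3L and AARSD1 are neighbours joined by a readthrough transcript, so the division of their reads is uncertain. The 10 genes from 10 to 15 Mb had a median of 0.37. Of these, 6 were called higher and none lower, beside the same shares of all genes. That window was singled out after its value was seen, and its difference was not tested.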
